A study of Arabidopsis thaliana with 12 samples.

Results

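The genes described here are the 8 core Polycomb genes of Arabidopsis thaliana named by their loci: the histone methyltransferases CLF (AT2G23380), SWN (AT4G02020) and MEA (AT1G02580), the PRC2 subunits FIE (AT3G20740), EMF2 (AT5G51230), VRN2 (AT4G16845) and MSI1 (AT5G58230), and the reader protein LHP1 (AT5G17690). They were taken by locus from an RNA sequencing table of 33602 genes, and 7 of the 8 passed the filter on low values. The libraries came from whole roots of seedlings 10 days old, sets of 12 of which had been shaken for 1 h in liquid medium before the roots were cut off. There were 4 groups of 3 libraries. The libraries labelled bpc1,2,3,4,6 mutant (bpc) carry mutations in 5 genes of the BPC family and were given the cytokinin benzyladenine (BA, made synthetically) at 5 µM, or only the vehicle, NaOH (a 5 N stock at 0.01%). The wild type (WT, accession Col-0) was given BA or vehicle in the same way. The sources used here name no mutant alleles or insertion sites. They also do not state that replicate libraries were grown separately; p-values therefore reflect the spread among these libraries alone, which may be technical.

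Polycomb proteins keep genes silent across cell divisions. Polycomb repressive complex 2 (PRC2) places the mark H3K27me3 on histone H3; in plants it is built from an E(z)-like methyltransferase (CLF, SWN or, in the female gametophyte and endosperm, MEA), the ESC-like protein FIE, a Su(z)12-like zinc finger protein (EMF2 or VRN2) and the WD40 protein MSI1. LHP1 binds H3K27me3 through its chromodomain. BPC proteins bind GAGA repeats in DNA and are reported to bring Polycomb proteins to their target genes, which is the reason to look at Polycomb transcripts in roots that lack several BPC genes. In roots, PRC2 is known to restrain embryo, flower and meristem genes.

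EMF2 and LHP1 were the members called between genotypes when both treatments were averaged, beside 8.98% of all tested genes. In bpc roots EMF2 was lower and LHP1 higher in all 6 libraries than in any of the 6 WT libraries. Such separations were seen for 1.55% (lower) and 2.7% (higher) of tested genes. Neither passed the main test within 1 treatment. Leaving out 1 library lost the EMF2 call in 10 of 12 cases and the LHP1 call in 6 of 12. The other 5 tested members did not pass the test between genotypes, no member passed the test for a response to 1 h of BA, and MEA was close to absent. On the log scale used for the test, the fitted level in bpc roots was 0.785 times that in WT roots for EMF2 and 1.23 times for LHP1, averaged over both treatments.

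The depth, recovered from the table as whole reads on genes, was 9426427 to 13948541 reads per library. WT BA replicate 1 stood apart: its RPKM values (reads per kilobase of gene, scaled to library size) were computed with a divisor of 11653485, the same as that of WT vehicle replicate 2, while its own reads sum to 10064381, so each of its values is low by a factor of 1.158. Both vehicle libraries numbered 3 also stood apart from the rest of their groups, as described below. BPC1, BPC2 and BPC6 were at 0.718 to 2.81 RPKM in bpc libraries and at 10.6 to 37.9 RPKM in WT libraries. BPC4 was at 14.5 to 17.8 RPKM in bpc libraries and 20.0 to 26.2 RPKM in WT libraries, while BPC3 was higher in bpc libraries, at 2.57 to 4.14 RPKM against 1.21 to 2.51 RPKM in WT libraries; since the sources do not say where the mutations lie, these reads do not check those alleles. All 4 type-A response regulators listed as a check on BA (ARR5, ARR7, ARR15 and ARR16) rose with BA in both genotypes. The 8 root tissue markers were all detected, with summed levels of 262 to 368 RPKM per library, and 6 markers of green tissue summed to 119 to 168 RPKM.

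**Figure D1:**
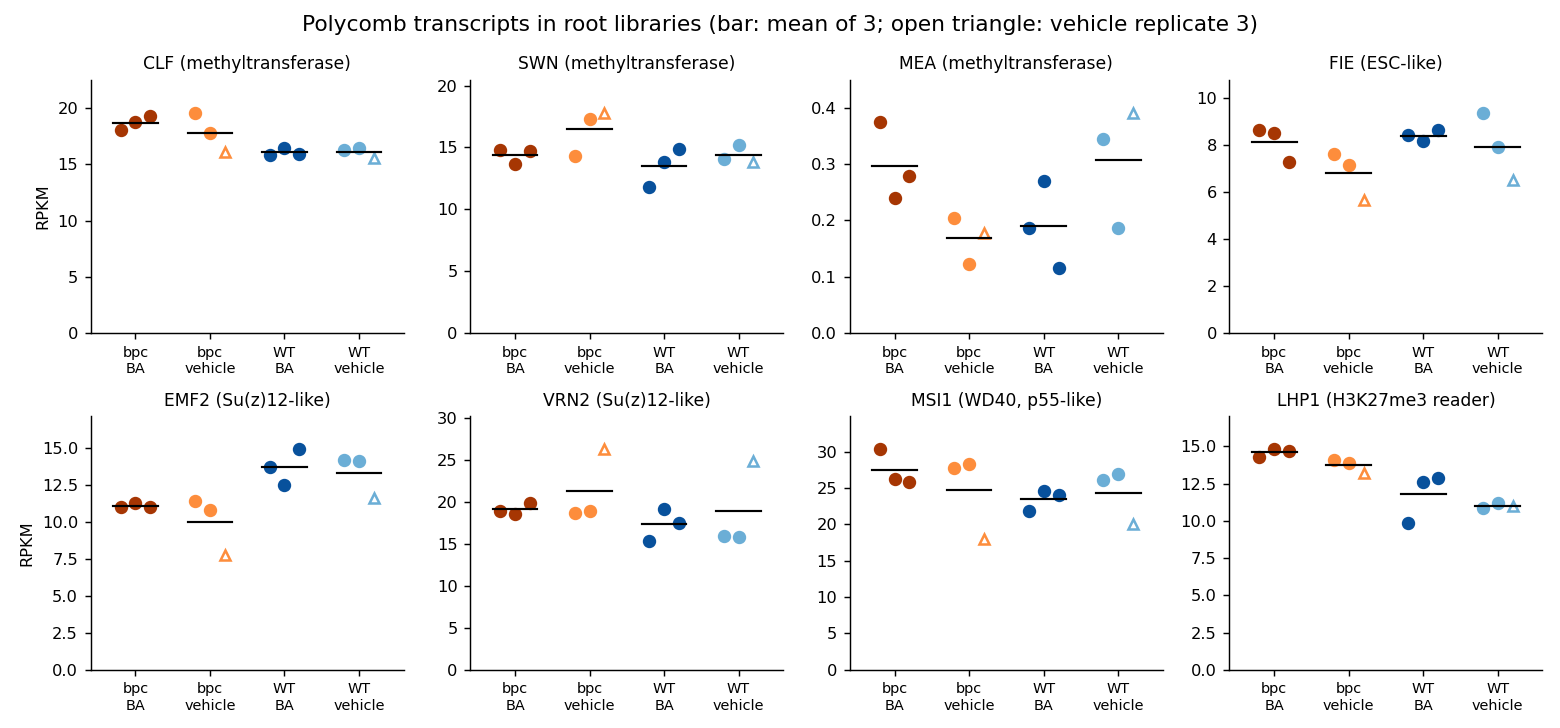
Level of each of the 8 Polycomb genes (vertical axis, RPKM, starting at 0) in the 12 root libraries, in 4 groups of 3 along the horizontal axis; bars mark group means and open triangles the vehicle libraries numbered 3. EMF2 lies at 7.76 to 11.4 RPKM in bpc libraries and at 11.6 to 14.9 RPKM in WT libraries, and LHP1 lies at 13.2 to 14.8 RPKM in bpc libraries and at 9.88 to 12.9 RPKM in WT libraries.

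The members covered a narrow range of levels apart from MEA. On the RPKM scale, which allows levels to be set side by side between genes of unequal length, MSI1 was the highest in each of the 4 groups, at group means of 23.4 to 27.4 RPKM, and VRN2 was next at 17.4 to 21.3 RPKM. In WT roots with vehicle the order was MSI1 (24.3 ± 3.77 RPKM), VRN2 (18.9 ± 5.12), CLF (16.1 ± 0.431), SWN (14.4 ± 0.77), EMF2 (13.3 ± 1.49), LHP1 (11.0 ± 0.155), FIE (7.92 ± 1.43) and MEA (0.307 ± 0.107; SD, n = 3 each). In that order MSI1 and VRN2, VRN2 and CLF, and SWN and EMF2 overlapped between libraries, while the other neighbours did not. In bpc roots with BA, LHP1 stood at rank 4, above SWN, with which it overlapped, and EMF2 stood at rank 6; in bpc roots with vehicle LHP1 was at rank 5 and EMF2 again at rank 6. In WT roots with BA, EMF2 was at rank 4 and LHP1 at rank 6, with SWN between and overlapping both. Among the 20776 genes tested, the mean level over the 12 libraries put MSI1 at the percentile 73.5 and FIE at 41.1, with the other 5 tested members in between.

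The first comparison asks whether loss of BPC function went with altered levels of Polycomb transcripts. It was fitted with limma on log2(RPKM + 0.5) over all 4 groups, with Benjamini-Hochberg adjustment over 20776 genes and a threshold of 0.05, and a difference is given on that scale with its SE, bpc minus WT. Averaged over both treatments, 1 of the 7 tested members was higher in bpc roots (LHP1) and 1 was lower (EMF2), beside a background of 8.98% of all tested genes called in either direction (5.5% higher and 3.48% lower; the higher calls were 61.2% of all calls as deposited and 43.7% after median-of-ratios scaling). An unadjusted p under 0.05 was seen for 3 members, CLF, EMF2 and LHP1 (background 23.2%). With vehicle alone 0 of 7 members were called (background 1.99%), and 2 had an unadjusted p under 0.05, EMF2 and LHP1 (background 13.4%). With BA alone 0 of 7 were called (background 2.32%), and 2 had an unadjusted p under 0.05, CLF and LHP1 (background 15.2%); limma-voom on the recovered reads also called 0 in both. The vehicle libraries numbered 3 of both genotypes deviated together, while a pairing of the other vehicle libraries by number is not settled. With the replicate number as a block within the vehicle libraries, EMF2 was also called with vehicle (1 of 7, with 1067 genes called against 414 without the block). With that block 0 of 7 were called with BA and the same 2 when averaged (1287 and 3446 genes). The median difference of the 7 tested members in the averaged comparison was 0.14, against 0.06 for all tested genes.

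**Figure D2:**
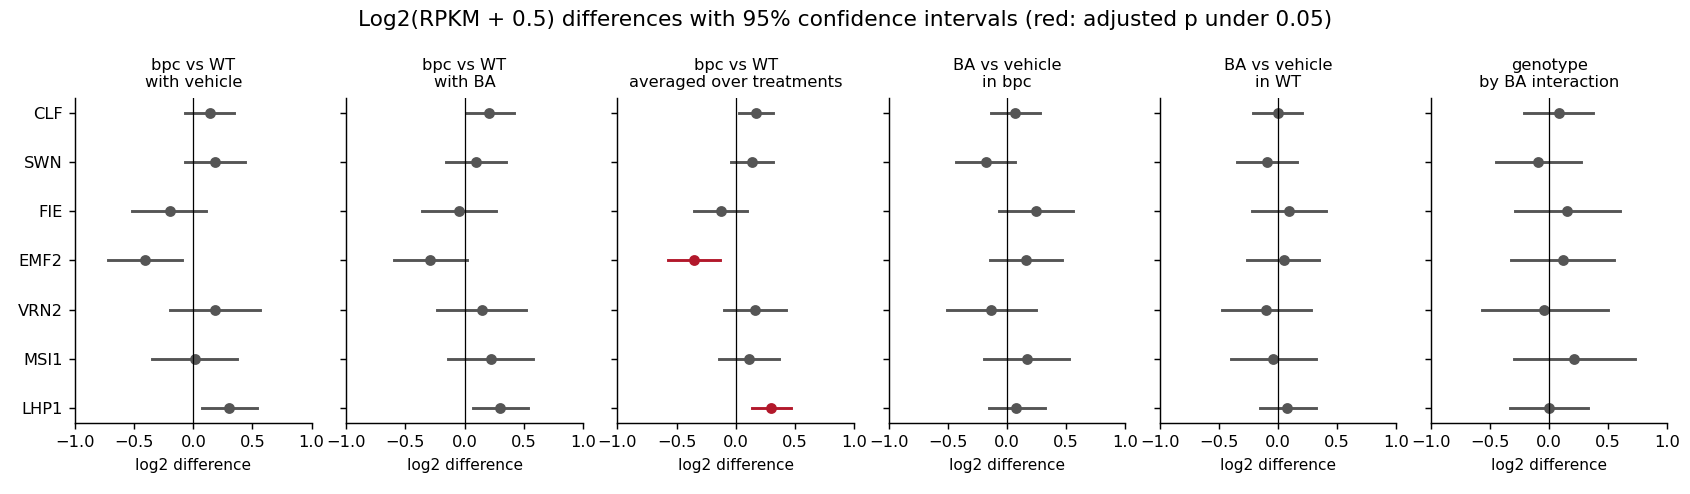
Differences on the log2(RPKM + 0.5) scale (horizontal axes) for the 7 tested members (rows) in 6 comparisons (panels), with 95% confidence intervals as lines; red marks an adjusted p under 0.05. The intervals of EMF2 (-0.57 to -0.13) and LHP1 (0.14 to 0.47) in the comparison averaged over treatments are those marked, and the intervals for BA against vehicle cross 0.

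EMF2, one of the Su(z)12-like subunits, is known in Arabidopsis for holding back flowering and flower genes in the seedling. It lies at chr5:20823644-20829644 on the plus strand (TAIR10.1, RefSeq) and no annotated gene overlaps it. The sequence before its start is shown because BPC proteins bind GAGA repeats and EMF2 was one of the members called. The 232 bases before the start that no other gene covers (chr5:20823412-20823643, plus strand, RefSeq TAIR10.1) are printed with GAGA, read on either strand and therefore also as TCTC, in capitals.
EMF2: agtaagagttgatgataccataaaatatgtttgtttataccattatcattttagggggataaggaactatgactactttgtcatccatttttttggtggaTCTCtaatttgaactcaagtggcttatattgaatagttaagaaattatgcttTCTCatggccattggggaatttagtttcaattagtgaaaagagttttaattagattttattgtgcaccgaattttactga
There are 2 such stretches, starting 132 and 80 bases before the gene. GAGA is common, in 82.9% of the 27443 windows of 250 bases before the start of protein-coding genes and in 5 of the 8 windows of the members. CLF had 7 stretches and MSI1 had 5, neither of them called, SWN and EMF2 had 2 each, and LHP1 had 1.

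EMF2 had 11.0, 11.3 and 11.0 RPKM in bpc roots with BA and 11.4, 10.8 and 7.76 RPKM in bpc roots with vehicle. It had 13.7, 12.5 and 14.9 RPKM in WT roots with BA and 14.2, 14.1 and 11.6 RPKM in WT roots with vehicle. Every bpc library was below every WT library, a separation in this direction that 1.55% of tested genes showed. The averaged difference was -0.35 ± 0.10 (95% interval -0.57 to -0.13, adjusted p = 0.047 by limma). With vehicle it was -0.41 ± 0.14 (adjusted p = 0.19 by limma) and with BA -0.29 ± 0.14 (adjusted p = 0.36), and neither passed. With the replicate block within the vehicle libraries EMF2 passed with vehicle (-0.41 ± 0.10, adjusted p = 0.032) and not with BA (adjusted p = 0.11). The difference with vehicle was -0.25 without bpc vehicle replicate 3 and -0.51 without bpc vehicle replicate 1. The genotype by BA interaction was 0.12 ± 0.20 (adjusted p = 1). The call was near the threshold: it was lost without any 1 of 10 of the 12 libraries, with differences of -0.40 to -0.27 and adjusted p of 0.028 to 0.11, and remained without bpc vehicle replicate 1 or without WT vehicle replicate 3. Without both vehicle libraries numbered 3 the difference was -0.31 (adjusted p = 0.017), and with WT BA replicate 1 rescaled to its own reads (EMF2 at 15.9 RPKM there) it was -0.38 (adjusted p = 0.033).

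VRN2, the alternative Su(z)12-like subunit, is known for the lasting silencing of FLC after cold and lies at chr4:9476069-9479878 on the plus strand with no overlapping gene. It had 19.0, 18.6 and 19.9 RPKM in bpc roots with BA and 18.7, 18.9 and 26.3 RPKM in bpc roots with vehicle. It had 15.4, 19.2 and 17.5 RPKM in WT roots with BA and 16.0, 15.9 and 24.9 RPKM in WT roots with vehicle. The groups overlapped, and the averaged genotype difference of 0.16 ± 0.12 did not pass (adjusted p = 0.48 by limma). The 2 highest values were both in vehicle libraries numbered 3.

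EMF2 and VRN2 can stand in for each other in PRC2, so the share of EMF2 in their summed RPKM was computed per library, with no test since it combines a called member with another. It was 36.6, 37.8 and 35.6% in bpc roots with BA and 37.7, 36.3 and 22.8% in bpc roots with vehicle. It was 47.1, 39.5 and 46.0% in WT roots with BA and 47.0, 46.9 and 31.8% in WT roots with vehicle. VRN2 transcripts per length were the larger part in every library, and apart from the vehicle libraries numbered 3 each bpc share was below each WT share. The share of CLF in the sum of CLF and SWN was 47.4 to 57.9% in bpc libraries and 51.7 to 57.4% in WT libraries, which overlap.

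**Figure D3:**
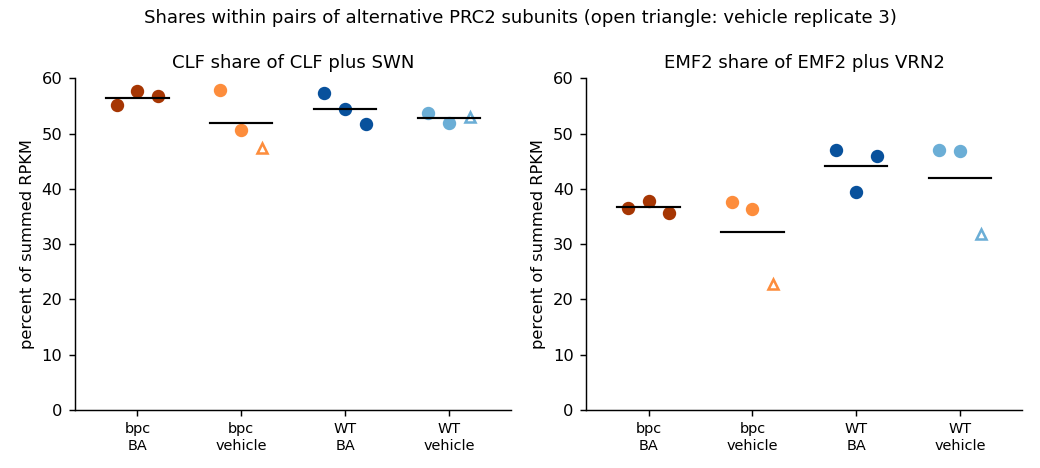
Share of CLF in the RPKM of CLF plus SWN (left) and of EMF2 in that of EMF2 plus VRN2 (right), in percent of the summed RPKM (vertical axes, starting at 0), for the 12 libraries in 4 groups; bars mark group means and open triangles the vehicle libraries numbered 3. The EMF2 share averages 36.7% in bpc roots with BA and 44.2% in WT roots with BA, and the vehicle libraries numbered 3 are the lowest of their groups at 22.8% (bpc) and 31.8% (WT).

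LHP1, the chromodomain reader of H3K27me3 also known as TFL2, lies at chr5:5827142-5829763 on the minus strand and overlaps AT5G17680 on the other strand by 12 bases; that gene was at 0.691 to 1.28 RPKM. As for EMF2, the 250 bases before its start (chr5:5829764-5830013, minus strand, RefSeq TAIR10.1) are printed with GAGA or TCTC in capitals.
LHP1: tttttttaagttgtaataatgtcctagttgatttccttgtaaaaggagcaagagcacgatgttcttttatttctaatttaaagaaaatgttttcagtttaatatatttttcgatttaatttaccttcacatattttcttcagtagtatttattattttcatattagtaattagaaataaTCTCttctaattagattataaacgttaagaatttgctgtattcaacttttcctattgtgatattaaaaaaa
The window holds 1 stretch, starting 71 bases before the gene.

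LHP1 had 14.3, 14.8 and 14.7 RPKM in bpc roots with BA and 14.1, 13.9 and 13.2 RPKM in bpc roots with vehicle. It had 9.88, 12.6 and 12.9 RPKM in WT roots with BA and 10.9, 11.2 and 11.0 RPKM in WT roots with vehicle. Every bpc library was above every WT library, which 2.7% of tested genes showed in this direction. The averaged difference was 0.30 ± 0.08 (95% interval 0.14 to 0.47, adjusted p = 0.027 by limma). It was 0.30 ± 0.11 with vehicle (adjusted p = 0.21) and 0.30 ± 0.11 with BA (adjusted p = 0.19), and neither of these passed by limma. With BA it was 0.24 with WT BA replicate 1 rescaled to its own reads, and 0.19 without that library to 0.37 without WT BA replicate 3; with vehicle it was 0.29 to 0.33 when 1 library was left out. The genotype by BA interaction was 0.00 ± 0.15 as deposited (95% interval -0.33 to 0.33), -0.07 with WT BA replicate 1 rescaled, and -0.12 to 0.07 when 1 library was left out. The averaged call was lost without any 1 of 6 of the 12 libraries (bpc BA 1, 2 or 3, bpc vehicle 1 or 2, or WT vehicle 1), with differences of 0.24 to 0.34 and adjusted p of 0.027 to 0.069 over the 12. The lowest value, 9.88 RPKM in WT BA replicate 1, became 11.4 RPKM with that library rescaled to its own reads, and the averaged difference was then 0.27 (adjusted p = 0.010). Without both vehicle libraries numbered 3 it was 0.32 (adjusted p = 0.031).

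In whole roots, fewer cells of a type and less RNA per cell cannot be told apart. Of 9 markers of dividing cells 0 were called in the genotype comparisons (backgrounds 8.98% averaged, 1.99% with vehicle and 2.32% with BA). Averaged over treatments 2 of the 9, both CYCB1 genes, had an unadjusted p under 0.05 by limma (background 23.2%). They were lower in bpc roots, by -0.28 ± 0.12 and -0.23 ± 0.09. CYCA1;1 (0.21 ± 0.10) and CDKB2;1 (0.04 ± 0.07) went the other way, and the rest of the 9 differed by -0.15 to -0.06. The summed level of the 9 with vehicle was 159 to 184 RPKM in bpc roots and 180 to 193 RPKM in WT roots. With BA it was 166 to 187 RPKM in bpc roots and 173 to 187 RPKM in WT roots. The value of 173 RPKM is that of WT BA replicate 1, which becomes 200 RPKM when rescaled to its own reads. The 8 root tissue markers gave 0 calls between genotypes, against the same backgrounds. Their sums were lower in each bpc library with vehicle, at 314 to 318 RPKM in bpc roots and 341 to 368 RPKM in WT roots. These sums rest mostly on CASP1, with means of 220 RPKM in bpc roots and 252 RPKM in WT roots with vehicle. With vehicle WER, SCR, WOX5 and COBL9 differed by -0.05 to 0.06, and SHR, PLT1, GL2 and CASP1 by -0.33 to -0.18. With BA the sums were 279 to 293 RPKM in bpc roots and 262 to 342 RPKM in WT roots. The lowest of these, WT BA replicate 1, becomes 303 RPKM when rescaled, above the bpc libraries. Of the 6 green tissue markers 5 were tested, and 1, LHCB1.3, was lower in bpc roots averaged over treatments (-0.71 ± 0.14, adjusted p = 0.0067 by limma). Of all tested genes 3.48% were called lower there. The part of these values in the EMF2 and LHP1 differences was not tested.

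CLF and SWN, the methyltransferases used outside the seed, did not pass. CLF lies at chr2:9955092-9960386 on the plus strand, SWN at chr4:886580-891987 on the plus strand. CLF had 18.1, 18.8 and 19.3 RPKM in bpc roots with BA and 19.6, 17.8 and 16.1 RPKM in bpc roots with vehicle. It had 15.8, 16.5 and 15.9 RPKM in WT roots with BA and 16.3, 16.5 and 15.6 RPKM in WT roots with vehicle. With BA the bpc libraries were above the WT libraries (background 19.1% of tested genes), but with WT BA replicate 1 rescaled, to 18.3 RPKM, the groups overlapped. The averaged difference of CLF was 0.17 ± 0.07 (adjusted p = 0.13 by limma). SWN had 14.8, 13.7 and 14.7 RPKM in bpc roots with BA and 14.3, 17.3 and 17.8 RPKM in bpc roots with vehicle. It had 11.8, 13.8 and 14.9 RPKM in WT roots with BA and 14.1, 15.2 and 13.8 RPKM in WT roots with vehicle. The SWN groups overlapped in both treatments and the averaged difference was 0.14 ± 0.08 (adjusted p = 0.34 by limma).

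CLF and MSI1 were the members whose window before the start held the longer repeat GAGAGA, which contains GAGA and which 20.6% of all windows hold. They are shown as 30 bases around it, with GAGA and TCTC in capitals (RefSeq TAIR10.1, plus strand, chr2:9955055-9955084 for CLF and chr5:23555854-23555883 for MSI1).
CLF: gatGAGAttacaGAGAGActtcgaaaagct
MSI1: atcgccatttttTCTCTCtttTCTCcaatc
The repeat starts 25 bases before CLF, and 146 bases before MSI1, in both cases inside a neighbouring gene. Neither CLF nor MSI1 was called between genotypes.

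MEA, which acts in the female gametophyte and the endosperm and lies at chr1:544733-549202 on the plus strand, was near the limit of detection. It had 0.374, 0.239 and 0.278 RPKM in bpc roots with BA and 0.204, 0.122 and 0.178 RPKM in bpc roots with vehicle. It had 0.187, 0.269 and 0.116 RPKM in WT roots with BA and 0.344, 0.187 and 0.391 RPKM in WT roots with vehicle. These are 3 to 11 reads per library, no library reached 0.5 RPKM, and MEA was not tested.

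FIE, the ESC-like subunit encoded by a single gene, and MSI1, a WD40 protein shared with the chromatin assembly complex CAF-1, also did not pass between genotypes. FIE (chr3:7248809-7252452, minus strand) had 8.61, 8.48 and 7.26 RPKM in bpc roots with BA and 7.61, 7.12 and 5.67 RPKM in bpc roots with vehicle. It had 8.40, 8.14 and 8.64 RPKM in WT roots with BA and 9.36, 7.91 and 6.49 RPKM in WT roots with vehicle. The groups overlapped, with an averaged difference of -0.12 ± 0.10 (adjusted p = 0.52 by limma). MSI1 (chr5:23556012-23558245, plus strand) had 30.3, 26.3 and 25.8 RPKM in bpc roots with BA and 27.8, 28.3 and 18.0 RPKM in bpc roots with vehicle. It had 21.8, 24.6 and 24.0 RPKM in WT roots with BA and 26.1, 26.9 and 20.0 RPKM in WT roots with vehicle. With BA the bpc libraries were above the WT libraries, a separation that 19.1% of tested genes showed as deposited. It remained after WT BA replicate 1 was rescaled to 25.2 RPKM, where the share of genes was not computed. The difference of 0.22 ± 0.17 did not pass (adjusted p = 0.60 by limma). AT5G58240, at 22.0 to 30.2 RPKM, overlaps MSI1 by 132 bases on the other strand, and AT2G23370, at 11.1 to 17.3 RPKM, overlaps CLF by 58 bases. AT2G23390, at 4.29 to 6.34 RPKM, overlaps CLF by a further 22 bases. FIE overlaps the long noncoding RNA gene AT3G04025, not analysed here, by 210 bases and AT3G20730, at 0.280 to 0.573 RPKM, by 70 bases; no source used here states a strand setting for the counting, so these members are uncertain to that extent.

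The second comparison asks whether 1 h of cytokinin moved Polycomb transcripts. No member was called in bpc roots (0 of 7, background 8.59%), in WT roots (0 of 7, background 8.68%) or averaged over genotypes (0 of 7, background 15.9%) by limma, 0 had an unadjusted p under 0.05 in any of these (backgrounds 18.3% in bpc roots, 18.5% in WT roots and 25.7% averaged), and limma-voom on the recovered reads called 0. The differences were -0.18 (SWN) to 0.25 (FIE) in bpc roots and -0.10 (VRN2) to 0.09 (FIE) in WT roots. Averaged over genotypes, the interval of LHP1 was -0.08 to 0.25, that of CLF -0.11 to 0.18 and that of EMF2 -0.11 to 0.32. For VRN2 it was -0.38 to 0.15, for FIE -0.05 to 0.39, for SWN -0.32 to 0.04 and for MSI1 -0.19 to 0.32. Changes of those sizes are not excluded. LHP1 was above vehicle in every bpc library with BA (background 12.2%) by 0.08 ± 0.11 (adjusted p = 0.77 by limma). In WT roots the LHP1 groups overlapped as deposited. The 3 BA libraries were above the 3 vehicle libraries once WT BA replicate 1 was rescaled, with a difference of 0.15 (adjusted p = 0.35 by limma). Such a separation was seen for 7.9% of tested genes as deposited, where that library is low, and the share after rescaling was not computed. MEA had 6 to 10 reads in bpc roots with BA and 3 to 5 reads in bpc roots with vehicle, too few to read a difference from. The genotype by BA interaction called 0 of 7 members (background 0.00481%), with 0 at an unadjusted p under 0.05 (background 1.63%).

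The vehicle libraries numbered 3 moved several members together in both genotypes. Against the mean of the other 2 libraries of its group, the third library had VRN2 at 140% in bpc roots and 155% in WT roots, which were its 2 highest values. MSI1 was at 64.3% in bpc roots and 75.5% in WT roots, FIE at 76.9% in bpc roots and 75.2% in WT roots, and EMF2 at 70.0% in bpc roots and 81.8% in WT roots. LHP1 was at 94.5% in bpc roots and 99.6% in WT roots, and CLF at 86.0% in bpc roots and 95.5% in WT roots, closer to their groups. SWN went to opposite sides, at 113% in bpc roots and 94.1% in WT roots. The SD of VRN2, MSI1 and EMF2 in the vehicle groups, and so the width of their intervals, rests largely on these libraries; what set them apart was not tested.

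The genes whose levels followed each member most closely over the 12 libraries were taken from 17517 genes with a mean of at least 2 RPKM, as a description by Pearson's r. The points share the library groups and include both vehicle libraries numbered 3. Without those libraries r between members went from -0.58 to 0.48 for VRN2 and MSI1 and from 0.62 to -0.24 for FIE and MSI1, and stayed at -0.81 for EMF2 and VRN2. For the genes below r was not computed without them. For EMF2 they were AT3G15380, a choline transporter family gene (r = 0.978), and AT5G21020 (0.976). For LHP1 they were HHP3, a heptahelical protein gene (0.964), and AT5G47830 (0.962). For VRN2 they were AT2G27260, of the late embryogenesis abundant hydroxyproline-rich family (0.986), and AT1G54410, a dehydrin family gene (0.983). For MSI1 they were AT1G05210 (0.977) and AT5G10390, a histone gene (0.966), for FIE AT4G12650 (0.982) and FAB1 (0.951), for CLF ACT1, an actin gene (0.929), and AT3G14220 (0.926), and for SWN AT4G28430 (0.899) and AT3G57830 (0.895). None of the Polycomb genes listed for this work was among these 14.

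Other genes of the Polycomb pathway gave few calls. Of 8 further PRC2 relatives and VEL partners, 6 were tested and 0 were called in any comparison (limma, 0 also at an unadjusted p under 0.05 between genotypes averaged over treatments, beside 8.98% of all tested genes called and 23.2% at an unadjusted p under 0.05 there). FIS2 and VIN3 stayed at or below 0.109 and 0.287 RPKM and were not tested. The highest were VEL1, with a mean of 41.6 RPKM over the 12 libraries and an averaged genotype difference of 0.24 ± 0.13, and MSI4, with 35.8 RPKM and -0.05 ± 0.08. Of 11 PRC1-like components and readers, which include RING1A, BMI1A and EMF1, 0 were called and 3 (VRN1 among them) had an unadjusted p under 0.05 between genotypes averaged over treatments (limma), against the same backgrounds of 8.98% and 23.2%; the highest were VRN1 (47.8 RPKM, 0.20 ± 0.09) and LIF2 (38.8 RPKM, 0.13 ± 0.08). The median difference was 0.04 for the PRC2 relatives and 0.13 for the PRC1-like genes, against 0.06 for all tested genes.

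Among 6 other DNA-binding proteins reported to bring Polycomb to DNA, 1 rose in bpc roots, the zinc finger gene AZF1, beside 5.5% of all tested genes called higher. AZF1 had 15.2, 14.6 and 14.4 RPKM in bpc roots with BA and 13.8, 15.1 and 11.7 RPKM in bpc roots with vehicle. It had 9.12, 13.3 and 10.5 RPKM in WT roots with BA and 10.1, 10.1 and 9.19 RPKM in WT roots with vehicle. WT BA replicate 2 was the WT library that reached into the bpc range, and the averaged difference was 0.43 ± 0.10 (adjusted p = 0.015 by limma). The VAL genes VAL1 (-0.18 ± 0.11) and VAL2 (0.13 ± 0.08) and the telomere repeat binding genes TRB1 (-0.06 ± 0.09), TRB2 (0.18 ± 0.08) and TRB3 (0.18 ± 0.08) did not pass, and the median of the 6 was 0.15.

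Of 17 antagonists of Polycomb, a list of H3K4 and H3K36 methyltransferases, H3K27 demethylases and remodellers with other trithorax-group genes, all were tested and 1 fell in bpc roots, beside 3.48% of all tested genes called lower and 8.98% called in either direction. ATX5, a trithorax-family H3K4 methyltransferase, had 2.94, 3.41 and 3.29 RPKM in bpc roots with BA and 3.52, 3.28 and 3.28 RPKM in bpc roots with vehicle. It had 3.47, 4.47 and 4.46 RPKM in WT roots with BA and 4.04, 4.84 and 4.72 RPKM in WT roots with vehicle. WT BA replicate 1, whose values are low by a factor of 1.158, was the WT library that reached into the bpc range. The averaged difference was -0.35 ± 0.09 (adjusted p = 0.038 by limma). The call was lost without any 1 of 10 of the 12 libraries (adjusted p of 0.019 to 0.093 over the 12). It was also lost with no filter on low values, and without both vehicle libraries numbered 3 (-0.33, adjusted p = 0.074 by limma). Of the 17, 7 had an unadjusted p under 0.05 by limma in that comparison (background 23.2%). ATX5 and ULT1 (-0.35 ± 0.13) were lower in bpc roots, and ATX1, ATX2, ATX3, BRM and PKL were higher (0.15 to 0.31). The median of the list was 0.11.

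Of 21 genes reported as Polycomb targets, 6 passed the filter on low values and 15 did not; STM, AG, SHP2, LEC1 and LEC2 were listed at 0 in all 12 libraries. Of the 6, 1 rose and 1 fell in bpc roots, beside 5.5% of all tested genes called higher and 3.48% called lower. PI, a floral homeotic gene, had 1.80, 2.42 and 2.23 RPKM in bpc roots with BA and 2.14, 1.11 and 2.97 RPKM in bpc roots with vehicle. It had 0.470, 0.422 and 0.564 RPKM in WT roots with BA and 0.916, 0.313 and 0.726 RPKM in WT roots with vehicle, from 4 to 14 reads per WT library. Every bpc library was above every WT library, as for 2.7% of tested genes; the averaged difference was 1.28 ± 0.19 (adjusted p = 0.0015 by limma), and PI was also called with BA alone (1.42 ± 0.27, adjusted p = 0.019), a call lost without any 1 of 5 libraries (bpc BA 1, 2 or 3, or WT BA 1 or 2; adjusted p up to 0.086).

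BP, a KNOX meristem gene, had 4.33, 2.06 and 2.04 RPKM in bpc roots with BA and 3.39, 3.75 and 4.80 RPKM in bpc roots with vehicle. It had 5.23, 8.46 and 5.72 RPKM in WT roots with BA and 5.15, 7.63 and 9.38 RPKM in WT roots with vehicle. All 6 bpc libraries were below all 6 WT libraries, as for 1.55% of tested genes, with an averaged difference of -0.95 ± 0.19 (adjusted p = 0.0092 by limma). KNAT6 (0.00 ± 0.11), KNAT2 (-0.44 ± 0.19), AP3 (-0.08 ± 0.16) and SHP1 (0.25 ± 0.18), the other 4 that were tested, did not pass, and the last 3 of these were under 1 RPKM in every library.

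**Figure D4:**
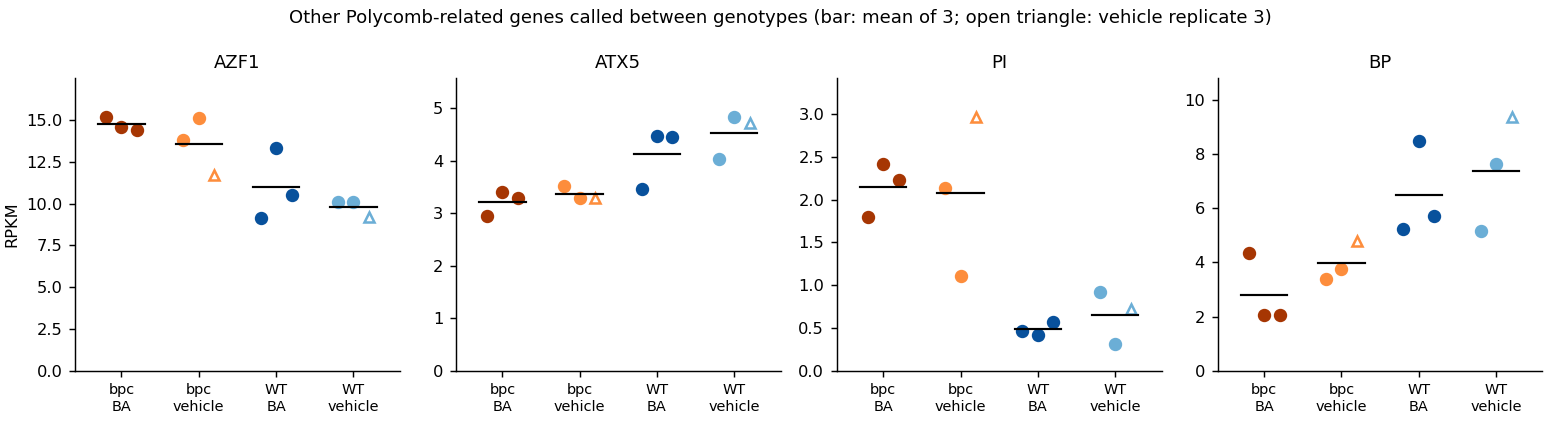
Levels (vertical axes, RPKM, starting at 0) of AZF1, ATX5, PI and BP in the 12 libraries in 4 groups; bars mark group means and open triangles the vehicle libraries numbered 3. PI lies at 1.11 to 2.97 RPKM in bpc libraries and at 0.313 to 0.916 RPKM in WT libraries, and BP lies at 2.04 to 4.80 RPKM in bpc libraries and at 5.15 to 9.38 RPKM in WT libraries.

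The authors' deposited tables, from their own edgeR fit, hold 7 of the 8 members (all but MEA) and cover 3 of the comparisons. In the authors' deposited table for bpc against WT with vehicle, EMF2 was at -0.40 (adjusted p = 0.00059, edgeR) and LHP1 at 0.30 (adjusted p = 0.019, edgeR), both under 0.05, beside 13.1% of its 19706 genes. The other 5 members in that authors' deposited table had adjusted p of 0.26 to 0.84 (edgeR). In the authors' deposited tables for BA against vehicle, 0 of 7 members were under 0.05 in bpc roots (background 23.8%) and 0 of 7 in WT roots (background 18.8%); the lowest adjusted p, by edgeR, were 0.13 (SWN, -0.19) and 0.14 (FIE, 0.26), both in bpc roots. These tables come from the same libraries, so they are another test of the same data: with vehicle alone they call EMF2 and LHP1, which limma on log2(RPKM + 0.5) called when both treatments were averaged.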

How the data were processed

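Messenger RNA was measured in 12 root libraries made with a stranded mRNA kit, per the labels' protocols. Per the submitters' processing notes, the authors used edgeR 3.0, featureCounts, Bowtie 1.1.0, TopHat2 2.0.11, FastQC and SAMtools 0.1.18 with genome build TAIR10; no source used here states the strand setting. RPKM values were deposited by the authors, along with 3 edgeR tables that hold, per the file headers, p-values, log2 fold changes, a likelihood-ratio score and the mean level as log2 CPM.

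Whole reads were recovered from RPKM for 25442 of 25442 genes above 0 (100%, within 0.001 reads). Groups and replicate numbers came from the titles. The main test was limma 3.58.1 (R 4.3.3) with an intensity trend on log2(RPKM + 0.5), which understates changes of low genes. It covered genes of at least 0.5 RPKM in at least 3 libraries (20776). The fit had 4 group terms, 8 residual degrees of freedom and Benjamini-Hochberg adjustment. Its trial on simulated data is not reported here. The number of reads behind a value limits its precision. The members and gene lists were chosen with earlier results of these data known. Genes named were the 8 members, every other listed gene called in any comparison, otherwise the 2 of highest mean in the list, and the 2 genes most like each member; other genes named for context were chosen after their values were seen. Alternatives were other pseudocounts (0.1 and 1), filters (none, or 2 RPKM), scalings, fits without trend, with a replicate block, without single libraries, or with the compared groups alone. The deviations of same-numbered libraries from their group means correlated, across genes, at 0.31, 0.37 and 0.63 between bpc and WT vehicle libraries. Differently numbered libraries were at 0.34 (bpc vehicle 2 with WT vehicle 1) and 0.19 (bpc vehicle 1 with WT vehicle 2). The values therefore set the vehicle libraries numbered 3 together and do not settle a pairing of numbers 1 and 2. The labels name no shared batch, and in no other comparison were all 3 same-numbered pairs over 0.1. A replicate block within the vehicle libraries, leaving out both vehicle libraries numbered 3, and limma-voom on the recovered reads were chosen after seeing the data; voom called 2156 genes between genotypes averaged over treatments, against 1865.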

Additional observations from a re-analysis of the deposited data

How the results depend on the processing

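Members called between genotypes averaged over treatments (2 in the report) numbered 1 with no filter on low values (EMF2 lost, adjusted p = 0.061 by limma) and 1 with no intensity trend (adjusted p = 0.057); they ranged from 0 to 2 when 1 library was left out. With vehicle, the replicate block within the vehicle libraries called 1 member (EMF2, adjusted p = 0.032) where 0 were called without it; otherwise 0 members were called in the other 6 comparisons under any alternative run. EMF2 was at -0.41 and LHP1 at 0.24 with median-of-ratios scaling (adjusted p = 0.022 and 0.019), and at -0.43 and 0.25 by limma-voom (0.014 and 0.022). With the replicate block over all 12 libraries 2 members were called, EMF2 (-0.35, adjusted p = 0.045) and LHP1 (0.30, adjusted p = 0.032), and this block changed no member's call. Same-numbered libraries correlated at 0.31 to 0.63 between the vehicle groups and at -0.28 to 0.63 over all 18 pairs, with 6 over 0.1. Of 12 libraries, 9 correlated best with one of their own number. These values set the vehicle libraries numbered 3 together, and a pairing of the other libraries by number is not settled.

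Of 1109 alternative values for the 47 member differences that were not called, 33 changed sign, none past 0.13 in size or below an adjusted p of 0.41, and 1 became a call (EMF2, above); apart from what leaving out libraries does by construction, the cause was not tested. Without both vehicle libraries numbered 3, BA against vehicle was 0.02 for VRN2 and -0.03 for MSI1 in bpc roots, -0.03 for FIE, -0.05 for EMF2 and 0.11 for VRN2 in WT roots, and -0.01 for CLF, -0.02 for EMF2, 0.07 for VRN2 and -0.10 for MSI1 averaged over genotypes. MSI1 between genotypes with vehicle was -0.03 with median-of-ratios scaling and by voom; in WT roots its BA difference was 0.01 under both and 0.03 with WT BA replicate 1 rescaled. Leaving out 1 library gave, for MSI1, -0.13 to 0.21 between genotypes with vehicle, -0.03 to 0.28 for BA in bpc roots, -0.17 to 0.04 for BA in WT roots and -0.04 to 0.12 for BA averaged. For VRN2 it gave -0.21 to 0.02 for BA in bpc roots, -0.20 to 0.11 for BA in WT roots and -0.24 to 0.12 for the interaction. For EMF2 it gave -0.05 to 0.11 for BA in WT roots and -0.05 to 0.22 for the interaction, and for FIE -0.09 to 0.02 between genotypes with BA and -0.03 to 0.21 for BA in WT roots.

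Counts over all genes that moved by over 1.5 times were, between genotypes with vehicle, 414 in the report, 80 with the compared groups alone, 1067 with the block within the vehicle libraries and 174 to 254 without 1 of 4 libraries (bpc vehicle 1 or 2, WT vehicle 1 or 2). With BA they were 481, against 895 with the compared groups alone, 1287 with that block, 1266 without both vehicle libraries numbered 3 and 172 to 283 without any 1 BA library. Averaged over treatments they were 1865, against 3446 with that block and 1193 and 1183 without bpc BA replicate 2 or 3; for BA in bpc roots 1785, against 3164 with that block and 1177 without bpc BA replicate 3; for BA in WT roots 1803, against 2890 with that block; for BA averaged 3302, against 5080 with that block; the interaction ranged from 0 to 4 about 1. Of calls between genotypes with BA, 55.7% were higher as deposited, against 34.6% after median-of-ratios scaling. MEA, at 3 to 11 reads, is limited by depth.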
